A study of Arabidopsis thaliana with 9 samples.

Results

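Glutathione S-transferases (GSTs) were examined in roots cut from Arabidopsis thaliana seedlings kept for 24 h at ambient or reduced atmospheric pressure. A gene was included when a probe set of the ATH1 array was annotated to it alone and its symbol was GST followed by a class letter and a number. This gave 12 of the 13356 genes that the array's annotation names through a single-gene probe set. Of these, 10 belonged to the tau class, 1 to the phi class (GSTF4) and 1 to the lambda class (GSTL3). The TAIR10.1 gene table lists 47 symbols of this form, 27 of them tau and 12 of them phi, so the genes measured here were a subset in which the phi class rested on 1 gene.

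All plants were light-grown ecotype Wassilewskija (WS) with no transgene, raised on plates for 5 d at 97 kPa on medium that held the fungicide benomyl. They were then moved to chambers at 97 kPa (the control), at 50 kPa or at 50 kPa/NormOx. At 50 kPa oxygen fell with total pressure, and at 50 kPa/NormOx added oxygen held its partial pressure at 21 kPa. Carbon dioxide was set to 0.05 kPa for every group, so it did not fall with total pressure. Each group held 3 arrays, 1 from each of 3 chambers, and each array carried the pooled roots of the plants of 1 tube. The p-values below therefore measure the spread between chambers and tubes rather than between single plants.

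GSTs join the tripeptide glutathione to reactive or foreign molecules, which marks these for transport into the vacuole. The tau and phi classes are the large plant classes and are known for herbicide detoxification and for induction by many stresses, whereas lambda enzymes carry a cysteine in the active site and act on glutathione conjugates rather than forming them. Oxygen shortage and the return of oxygen both alter the redox state of plant cells, in which glutathione is a main buffer.

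Median signals of the arrays were 196 to 217. HRU1, a universal stress protein gene induced by low oxygen, had signals of 998, 986 and 969.6 at 97 kPa, 2595, 2220.3 and 2039.7 at 50 kPa, and 879.9, 943 and 775 at 50 kPa/NormOx. It rose 2.31-fold at 50 kPa against 97 kPa (limma, adjusted p = 0.000698) and was 2.63-fold higher at 50 kPa than at 50 kPa/NormOx (adjusted p = 0.000154). Across probe sets, correlations within groups ran from 0.944 to 0.965. The array 50 kPa/NormOx replicate 2 stood apart, correlating at 0.954 to 0.960 with the 50 kPa arrays and at 0.944 to 0.946 with its own group, and the GST values that rest most on it are also given without it. Of the root markers, PYK10, a root beta-glucosidase gene, had signals of 15871 to 21454 on the 9 arrays, and the root hair expansin genes EXPA7 and EXPA18 had 201 to 466 and 302 to 634. Of 10 listed shoot markers, 3 were measured (RCA, STOMAGEN and LHCB4.1). They summed to 5690 to 7968 at 97 kPa, 7982 to 13180 at 50 kPa and 4570 to 11732 at 50 kPa/NormOx. These leaf markers were thus measured in every root sample. By the sum all 50 kPa arrays lay above all 97 kPa arrays, although only just, and RCA alone overlapped (2627 at 50 kPa replicate 3, 2831 at 97 kPa replicate 3). Within 50 kPa/NormOx, replicate 2 was the highest array for each of the 3 markers. The part of leaf tissue in the GST values was not tested, and in such bulk samples fewer cells of a type and less RNA per cell cannot be told apart.

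Of the 12 genes, 10 were bright enough to be tested (8 tau, GSTF4 and GSTL3). GSTU15 (AT1G59670) and GSTU21 (AT1G78360) fell below the filter, which was set on mean log2 signal and corresponds to a signal of 66.6. GSTU15 had signals of 6.44, 39.4 and 13.3 at 97 kPa, 90.7, 24.8 and 104 at 50 kPa, and 6.73, 10.3 and 95.1 at 50 kPa/NormOx. GSTU21 had 55.2, 33.0 and 77.0, then 98.2, 5.25 and 106, and then 69.9, 80.4 and 105 in the same order of groups. Both were scattered within every group, and the groups overlapped. The 12 genes each had 1 probe set, none of a type marked as shared with other genes by its name. Some of the genes are chromosomal neighbours, with 0 protein-coding genes between GSTU21 and GSTU22, between GSTU22 and GSTU23 and between GSTU25 and GSTU26, and 3 between GSTU15 and GSTU16.

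No GST gene was called in any comparison. At a Benjamini-Hochberg adjusted p under 0.05 in limma over 15832 probe sets, 0 of the 10 tested genes passed for 50 kPa against 97 kPa, where 0.0947% of all tested probe sets did. The count was 0 of 10 for 50 kPa/NormOx against 97 kPa, beside 0.392% of all probe sets, and 0 of 10 for 50 kPa against 50 kPa/NormOx, beside 0.0821%. At these background shares a count of 0 among 10 genes does not set the GSTs apart from other genes. At an unadjusted p under 0.05 the numbers of GST genes were 0, 3 and 2 in the same order of comparisons, beside 9.38%, 12.7% and 9.04% of all probe sets. At an unadjusted p under 0.01 they were 0, 2 and 0, beside 2.61%, 4.45% and 2.29% of all probe sets. The 2 genes were GSTU27 and GSTL3.

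**Figure D1:**
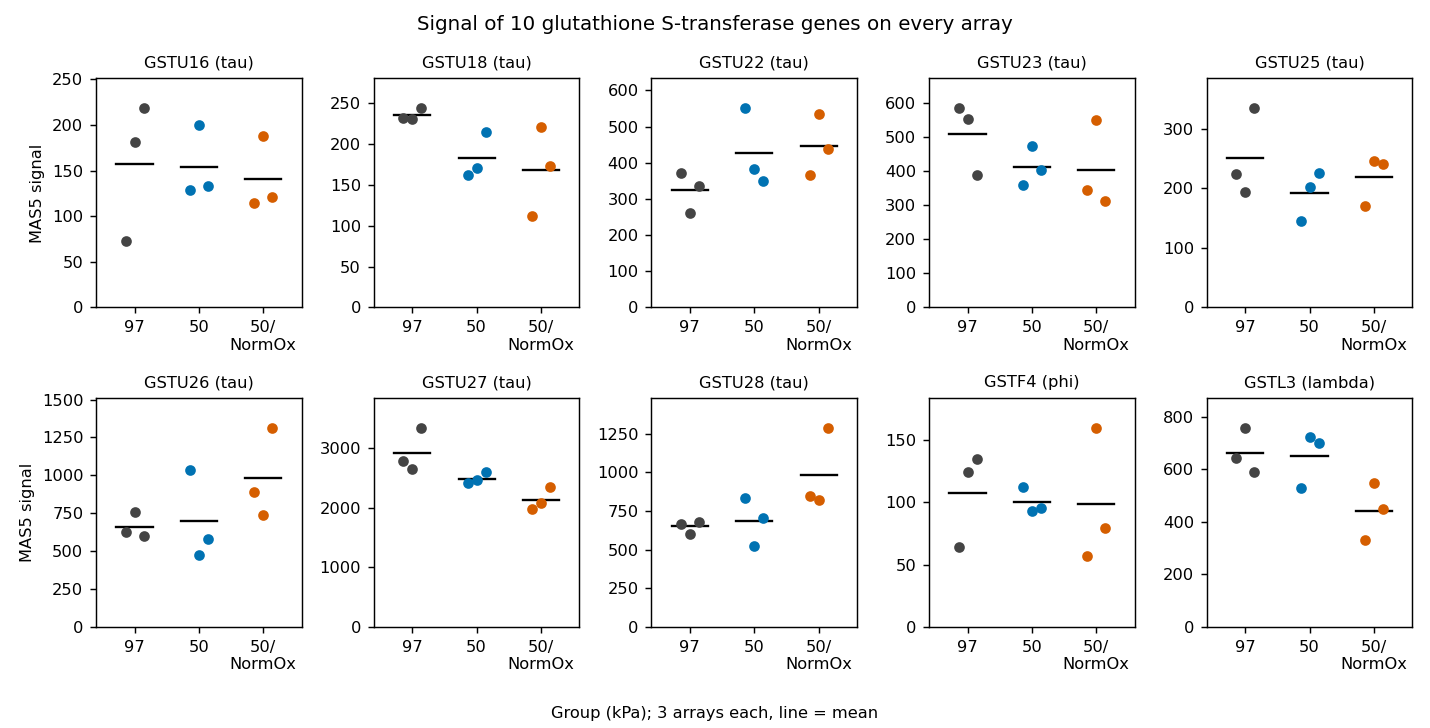
MAS5 signal (linear scale from 0, a separate scale for each gene) of the 10 tested GST genes on each of the 9 arrays in the 3 groups; points are arrays in order of replicate number and lines are group means. The 50 kPa/NormOx arrays of GSTU27, GSTU18 and GSTL3 all lie under the 97 kPa arrays and those of GSTU28 all lie above them.

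Whether low pressure alters GST transcripts when oxygen is kept normal was addressed by 50 kPa/NormOx against 97 kPa. Estimates of the tau genes lay on both sides of 0. GSTU27 and GSTU18 had lower signals and GSTU28 and GSTU26 higher ones, with log2 changes between -0.54 and 0.57 over the 8 tau genes, and the lambda gene GSTL3 was lower. None of these differences held after adjustment over all probe sets.

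GSTU27 (AT3G43800), a tau gene, had signals of 2781, 2654 and 3339 at 97 kPa and of 1985, 2075 and 2346 at 50 kPa/NormOx. The 3 arrays at 50 kPa/NormOx all lay under the 3 control arrays, and the means were 2135 ± 188 and 2925 ± 365 (SD, n = 3). The log2 change was -0.45 ± 0.13 (SE), a signal 0.732 times that of the control, with a 95% interval of -0.72 to -0.18 (limma, adjusted p = 0.145). It was -0.43 without 50 kPa/NormOx replicate 2. GSTU27 also had the smallest spread between replicates of the 10 genes, with a pooled SD of 0.128 on the log2 scale where the median of all tested probe sets was 0.262.

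GSTL3 (AT5G02790), of the lambda class, had signals of 643, 759 and 590.3 at 97 kPa and of 332, 550.2 and 448 at 50 kPa/NormOx. The groups did not overlap, and the array at 50 kPa/NormOx closest to the controls was replicate 2. The log2 change was -0.61 ± 0.20, with an interval of -1.03 to -0.18 (limma, adjusted p = 0.215). Without replicate 2 it was -0.78.

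GSTU28 (AT1G53680), a tau gene, had signals of 669, 603 and 682 at 97 kPa and of 845, 822 and 1288 at 50 kPa/NormOx. All 3 arrays at 50 kPa/NormOx lay above the controls, and replicate 3 lay far above the other two. The log2 change was 0.57 ± 0.20, a 1.48-fold difference with an interval of 0.14 to 0.99 (limma, adjusted p = 0.245). It was 0.36 without replicate 3 and 0.68 without replicate 2.

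GSTU26 (AT1G17190), also tau, had 624, 758 and 601 at 97 kPa and 889, 737 and 1314 at 50 kPa/NormOx. Its groups overlapped, since replicate 2 at 50 kPa/NormOx lay below control replicate 2. The log2 difference was 0.53 ± 0.26 (limma, adjusted p = 0.409), and it was 0.72 without 50 kPa/NormOx replicate 2 and 0.30 without replicate 3.

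GSTU18 (AT1G10360) had 232, 231 and 244 at 97 kPa and 112, 221 and 173 at 50 kPa/NormOx. The control arrays lay close together, and all 3 arrays at 50 kPa/NormOx fell under them although these were widely spread. The log2 difference was -0.54 ± 0.27 (limma, adjusted p = 0.424), and it was -0.76 without 50 kPa/NormOx replicate 2 and -0.27 without replicate 1. GSTU22 (AT1G78340) had 371, 262 and 337 at 97 kPa against 365, 535 and 438, with a log2 difference of 0.46 ± 0.22 (adjusted p = 0.398). Its neighbour GSTU23 (AT1G78320) had 585, 555 and 388 against 345, 550.0 and 313, with a log2 difference of -0.36 ± 0.23 (adjusted p = 0.553). For GSTU23 it was -0.61 without 50 kPa/NormOx replicate 2, -0.20 without replicate 3 and -0.55 without 97 kPa replicate 3. The arrays of both genes overlapped between the groups, and the estimates of these neighbours had opposite signs.

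In all, 1 of the 10 genes was higher (GSTU28) and 3 were lower (GSTU18, GSTU27 and GSTL3) at 50 kPa/NormOx with no overlap with the 97 kPa arrays. Over all tested probe sets, 8.19% were higher and 10.3% lower without overlap. The estimate was above 0 for 3 of the 10 genes and for 46.9% of all probe sets.

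**Figure D2:**
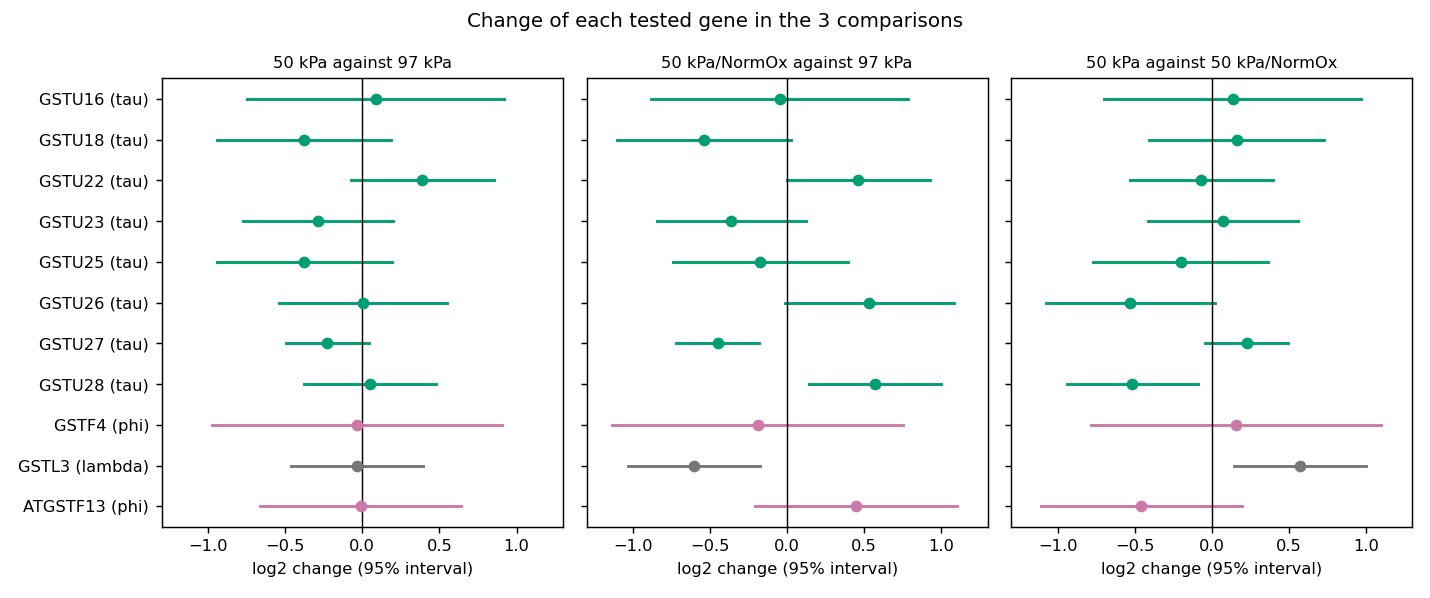
log2 change with its 95% interval (limma, 9 arrays) for the 10 tested GST genes and ATGSTF13 in the 3 comparisons; green marks tau, pink phi and grey lambda, and the vertical line is no difference. For 50 kPa/NormOx against 97 kPa the intervals of GSTU27, GSTL3 and GSTU28 leave out 0 before adjustment. Those of GSTF4 run from -0.98 to 0.91, from -1.13 to 0.75 and from -0.79 to 1.10 in the 3 comparisons from left to right.

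In 50 kPa against 97 kPa, pressure and oxygen fell together. Here the log2 differences of the GST genes ran from -0.38 to 0.39, and the smallest adjusted p of the 10 genes was 0.614 (GSTU22). GSTU27 had 2415, 2458 and 2592 at 50 kPa, all under the control arrays, with a log2 difference of -0.23 ± 0.13 (limma, adjusted p = 0.614) that was -0.13 without 97 kPa replicate 3. GSTU18 had 162, 171 and 214, likewise all under the controls, with a difference of -0.38 ± 0.27 (adjusted p = 0.697). These 2 were the only GST genes without overlap, 0 higher and 2 lower, where 6.2% of all probe sets were higher and 9.78% lower.

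The other tau genes overlapped. GSTU22 had 551, 382 and 351 at 50 kPa, with a log2 difference of 0.39 ± 0.22 that was 0.19 without 50 kPa replicate 1 and 0.25 without 97 kPa replicate 2. GSTU23 had 361, 474 and 405, with a difference of -0.29 ± 0.23 that was -0.18 without 97 kPa replicate 1 and -0.47 without 97 kPa replicate 3. GSTU25 (AT1G17180), whose enzyme is known to conjugate the explosive trinitrotoluene, had 224, 194 and 334 at 97 kPa and 145, 203 and 226 at 50 kPa, a difference of -0.38 ± 0.27 (limma, adjusted p = 0.698). It was -0.15 without 97 kPa replicate 3 and -0.19 without 50 kPa replicate 1. At 50 kPa/NormOx its signals were 171, 246 and 241. The 3 groups of GSTU25 overlapped throughout, and its highest value was a control array, 97 kPa replicate 3.

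GSTU26 and GSTU28 had estimates near 0 at 50 kPa, with wide intervals. GSTU26 had 1035, 477 and 581, with a log2 difference of 0.01 and an interval of -0.54 to 0.55. GSTU28 had 835, 523 and 702, with a difference of 0.05 and an interval of -0.38 to 0.48. In both genes replicate 1 was the brightest and replicate 2 the dimmest of the 50 kPa arrays, on either side of the controls. GSTL3 had 528, 722 and 701 at 50 kPa, a range that overlapped the control, with a difference of -0.04 and an interval of -0.46 to 0.39.

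The effect of oxygen at equal low pressure was addressed by 50 kPa against 50 kPa/NormOx, which shares its arrays with the other comparisons and is not independent of them. GSTL3 was 1.48-fold higher at 50 kPa, with a log2 difference of 0.57 ± 0.20 and an interval of 0.14 to 1.00 (limma, adjusted p = 0.441). Its groups overlapped, since 50 kPa replicate 1 (528) lay under 50 kPa/NormOx replicate 2 (550.2), and the difference was 0.74 without the latter and 0.38 without 50 kPa/NormOx replicate 1. GSTU28 was lower at 50 kPa by the estimate, at -0.52 ± 0.20 (adjusted p = 0.478), with replicate 1 at 50 kPa inside the range of the other group. It was -0.63 without 50 kPa/NormOx replicate 2, -0.31 without 50 kPa/NormOx replicate 3 and -0.33 without 50 kPa replicate 2.

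GSTU26 differed by -0.53 ± 0.26 (limma, adjusted p = 0.563), also with overlap. Leaving out 50 kPa/NormOx replicate 2 gave -0.71, leaving out 50 kPa replicate 1 gave -0.85, and the value was -0.30 without either 50 kPa replicate 2 or 50 kPa/NormOx replicate 3. Only GSTU27 had groups apart, with all 50 kPa arrays above all 50 kPa/NormOx arrays and a log2 difference of 0.22 ± 0.13 (adjusted p = 0.624). That made 1 of 10 genes higher and 0 lower without overlap, where 4.8% of all probe sets were higher and 7.67% lower. The remaining GST genes differed by -0.20 to 0.16 on the log2 scale. In GSTU27 the 50 kPa arrays thus lay between those of the other groups.

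The tau and phi classes were compared next. For 50 kPa against 97 kPa the median log2 change was -0.11 over the 8 tau genes and -0.03 for GSTF4, beside -0.04 over all tested probe sets. For 50 kPa/NormOx against 97 kPa the values were -0.11, -0.19 and -0.02 in the same order. In 50 kPa against 50 kPa/NormOx the medians were 0.00, 0.16 and -0.02. Of the 8 tau genes, 4, 3 and 4 had estimates above 0 in these comparisons. The tau median for 50 kPa/NormOx against 97 kPa was 0.16 without 97 kPa replicate 3, 0.04 without 50 kPa/NormOx replicate 1 and -0.27 without 50 kPa/NormOx replicate 2, so its sign was decided by single arrays.

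GSTF4 (AT1G02950), the phi gene, had signals of 64.3, 124 and 134 at 97 kPa, 112, 92.9 and 95.6 at 50 kPa, and 56.9, 159 and 79.2 at 50 kPa/NormOx. The lowest and the highest of the 9 signals were both at 50 kPa/NormOx, and the groups overlapped in every comparison. Its intervals ran from -0.98 to 0.91 for 50 kPa against 97 kPa and from -1.13 to 0.75 for 50 kPa/NormOx against 97 kPa, so that differences of most of a log2 unit in either direction lay inside them. The latter estimate was -0.61 without 50 kPa/NormOx replicate 2 and 0.14 without replicate 1. The estimate for 50 kPa against 97 kPa, -0.03, became 0.06 under quantile normalization.

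ATGSTF13, a phi gene whose symbol carries a prefix and so misses the naming rule, had 218, 167 and 312 at 97 kPa, 339, 209 and 157 at 50 kPa, and 311, 229 and 403 at 50 kPa/NormOx. Its groups overlapped as well, with log2 differences of -0.01 ± 0.31, 0.45 ± 0.31 and -0.46 ± 0.31 in the 3 comparisons. For 50 kPa/NormOx against 97 kPa the estimates of these phi genes had opposite signs, so the sign given for the phi class depends on which of them is taken.

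Averaged over the 8 tau genes of an array and set against the control mean, log2 signal was -0.10, -0.02 and 0.12 at 97 kPa, -0.05, -0.13 and -0.09 at 50 kPa, and -0.25, 0.15 and 0.09 at 50 kPa/NormOx. The tau averages of the groups overlapped, and both the lowest and the highest belonged to 50 kPa/NormOx. GSTF4 on the same scale was -0.67, 0.27 and 0.39, then 0.13, -0.14 and -0.10, and then -0.85, 0.64 and -0.37. The pooled SD between replicates was 0.143 for the tau average and 0.559 for GSTF4, a difference that comes in part from averaging 8 genes. Single tau genes had SDs of 0.128 (GSTU27) to 0.581 (GSTU16), a range that holds the value of GSTF4. GSTF4 had the lowest mean signal of the tested genes (102), with 64.3 at 97 kPa replicate 1 and 56.9 at 50 kPa/NormOx replicate 1. Both lay under the filter's signal of 66.6. Among the tested tau genes, GSTU16 had the lowest mean signal (151) and GSTU27 the highest (2516). The part of low signal in the spread was not tested.

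**Figure D3:**
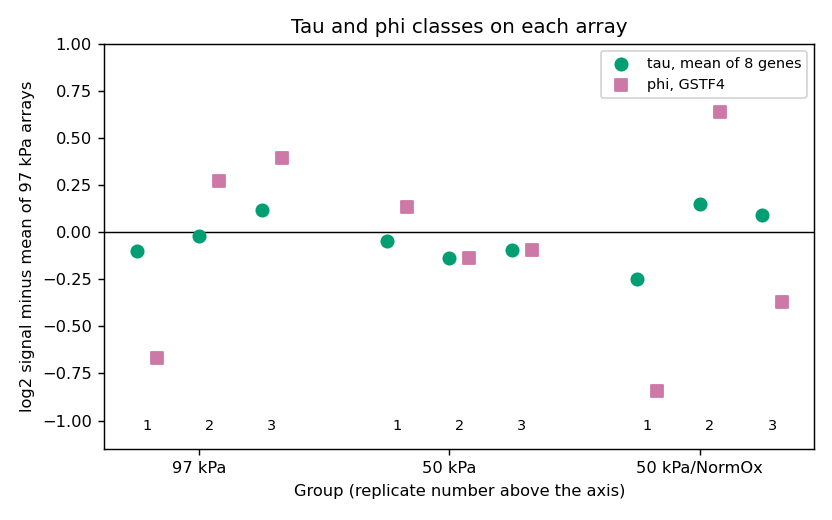
log2 signal relative to the mean of the 97 kPa arrays for the mean of 8 tau genes (green circles) and for GSTF4, the phi gene (pink squares), on each array by group and replicate number. The tau means stay between -0.25 and 0.15 and overlap between groups, and GSTF4 runs from -0.85 to 0.64, both at 50 kPa/NormOx.

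GSTU16 (AT1G59700), the tau gene with the widest spread, had 72.3, 182 and 218 at 97 kPa, 129, 200.4 and 133 at 50 kPa, and 114, 188 and 121 at 50 kPa/NormOx. The control arrays alone spanned all the others. Its log2 differences were 0.09, -0.05 and 0.13 with an SE of 0.39, and without 97 kPa replicate 1 the first became -0.40.

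The tested genes were set against each other over the 9 arrays, as log2 signals in 45 pairs, to see which members moved together. Pearson's r ran from -0.71 to 0.88 with a median of 0.15, and 25 pairs were above 0. Of the 45 pairs, 5 had an unadjusted exact permutation p under 0.05 and 0 passed Benjamini-Hochberg adjustment, by r or by Spearman's rho. The pair with the highest r was GSTU26 and GSTU28 (r = 0.88, exact permutation p = 0.00136, adjusted p = 0.0614), with rho = 0.75 (exact permutation p = 0.0255, adjusted p = 0.191). Both genes were brightest on 50 kPa/NormOx replicate 3. After group means were subtracted r was 0.83, and it was 0.62 without the 2 arrays farthest from the median of GSTU26.

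GSTL3 and GSTU28 ran in opposite directions, with r = -0.71 (exact permutation p = 0.0364, adjusted p = 0.294) and rho = -0.92 (exact permutation p = 0.00131, adjusted p = 0.0590). After group means were subtracted r was -0.33, and it was -0.85 without the 2 arrays farthest from the median of GSTL3. GSTF4 and the tau gene GSTU16 gave r = 0.77 (exact permutation p = 0.0143, adjusted p = 0.272) and rho = 0.77 (exact permutation p = 0.0214, adjusted p = 0.191), and r was 0.78 within groups.

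Neither tested pair of chromosomal neighbours passed, and both estimates were below 0. GSTU25 and GSTU26 gave r = -0.33 (exact permutation p = 0.391) and rho = -0.32 (exact permutation p = 0.410). GSTU22 and GSTU23 gave r = -0.24 (exact permutation p = 0.532) and rho = -0.25 (exact permutation p = 0.521). The adjusted p-values were 0.652 and 0.709 for r. For GSTU25 and GSTU26, r was -0.47 after group means were subtracted and 0.10 without the 2 arrays farthest from the median of GSTU25. For GSTU22 and GSTU23, it was 0.12 after group means were subtracted and -0.56 without the 2 arrays farthest from the median of GSTU22. The sign of each estimate thus turned under 1 of these checks.

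The enzymes that supply glutathione were considered next. From a list of 29 genes of glutathione synthesis, recycling and use, the annotation names 2, and both were tested. GR1 and GR2 encode glutathione reductases, the first of the cytosol and peroxisomes and the second of plastids and mitochondria, which restore reduced glutathione. GR1 had 1393, 1213 and 1329 at 97 kPa, 1313, 1508 and 1192 at 50 kPa, and 1117, 1237 and 1352 at 50 kPa/NormOx, with overlap throughout.

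GR2 had 1218, 982 and 1510.5 at 97 kPa, 900.1, 956 and 924 at 50 kPa, and 734, 999 and 819 at 50 kPa/NormOx. All 50 kPa arrays lay under the controls, whereas 50 kPa/NormOx overlapped them through replicate 2. The log2 difference from 97 kPa was -0.40 ± 0.17 at 50 kPa (limma, adjusted p = 0.495) and -0.53 ± 0.17 at 50 kPa/NormOx (adjusted p = 0.199). Neither passed the test, and 0 of 2 genes of the list were called in any comparison.

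Of 17 genes of sulfate assimilation and cysteine synthesis, the source of the sulfur in glutathione, 3 were named and tested and 0 were called. APS3, a plastid ATP sulfurylase that activates sulfate, had 829, 475 and 754 at 97 kPa, 324, 434 and 473 at 50 kPa, and 483, 517 and 503 at 50 kPa/NormOx. It was lower at 50 kPa on every array, although only just against control replicate 2, with a log2 difference of -0.72 ± 0.21 (limma, adjusted p = 0.303).

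SIR, the sulfite reductase, had 3626, 3594 and 3407 at 97 kPa, 2685, 3335 and 3613 at 50 kPa, and 2168, 2691 and 3039.6 at 50 kPa/NormOx. The 50 kPa/NormOx arrays all lay under the controls, with a log2 difference of -0.44 ± 0.14 (limma, adjusted p = 0.207). APS4, a second ATP sulfurylase, had 874, 969.9 and 882, then 967, 901 and 1033, and then 781, 894 and 1057, with overlap throughout. The 3 genes had median log2 changes of -0.15 at 50 kPa and -0.41 at 50 kPa/NormOx against 97 kPa, beside -0.04 and -0.02 over all tested probe sets.

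**Figure D4:**
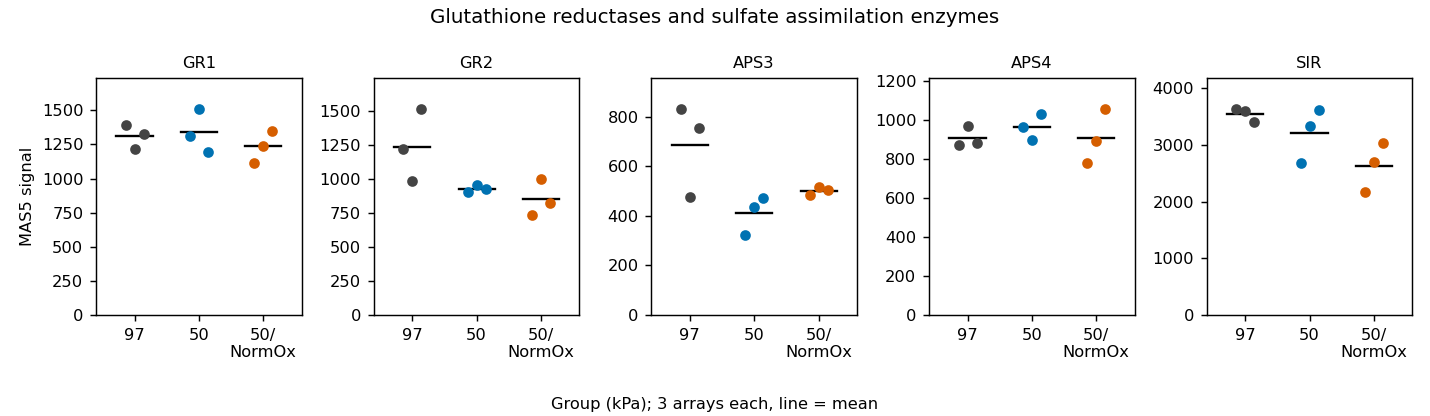
MAS5 signal (linear scale from 0, a separate scale for each gene) on each of the 9 arrays for the glutathione reductases GR1 and GR2, the ATP sulfurylases APS3 and APS4 and the sulfite reductase SIR; points are arrays and lines are group means. GR2 and APS3 lie under the controls at 50 kPa and SIR at 50 kPa/NormOx, and none of the 5 passed the adjusted test.

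Of 12 genes that respond to foreign compounds or oxylipins, among which tau GST genes are usually counted, 5 were named, 3 were tested and 0 were called. UGT73B4 and UGT73B5, glucosyltransferase genes induced by pathogens and oxidative stress, were below the floor. ALDH7B4, an aldehyde dehydrogenase gene, had 1312, 1211 and 976 at 97 kPa, 1411, 1354 and 1445 at 50 kPa, and 1413, 1450.4 and 1325 at 50 kPa/NormOx. Both low pressure groups lay above the controls on every array, with log2 differences of 0.28 ± 0.14 and 0.27 ± 0.14 (limma, adjusted p = 0.555 and 0.445). AER, a reductase of reactive alkenals, and the quinone reductase NQR overlapped between groups, with log2 differences from 97 kPa of -0.12 to 0.22. The annotation names 0 of 8 genes of the TGA factors that bind promoters of stress-induced GST genes.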

How the data were processed

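Root RNA of 9 seedling samples was hybridised to ATH1 arrays. The authors deposited probe set intensities on a linear scale, computed with MAS5 in Affymetrix Expression Console, and each array had a trimmed mean of 500.1; no software version is named in the sources used here. Such scaling hides changes in total mRNA, and no detection calls were used. The study itself tested values from another normalization (robust multi-chip average), not used here. Groups and replicate numbers came from the sample titles; 1 array at 50 kPa is replicate 2 by title and replicate 3 by description, and the title was used.

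Of 22810 probe sets, 64 controls and 130 of organelle genes (69 named, 61 inferred from neighbouring probe numbers) were left out. The 6784 with the lowest mean log2 signal (30%) were also left out, which left 15832. Genes were named from the platform annotation: 13513 probe sets name 1 gene (13436 found in the TAIR10.1 gene table), 503 name several and 8794 are not listed. The brightest probe set stood for a gene. A further tau gene is not reported here. The number of unused sample columns was 0.

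The log2 signals of all 9 arrays were fitted in limma 3.58.1 (R 4.3.3) by group with an intensity trend, using two-sided moderated tests and Benjamini-Hochberg adjustment over all tested probe sets. Correlations between genes were tested over all orders of the 9 arrays, without regard to group. These p-values therefore take in shared differences between groups as well as spread within them. The r after subtraction of group means was not tested. The fit was also run on data simulated with independent noise of the spread it had estimated. That run cannot test noise shared between probe sets of an array. The rule for naming genes took the called members, if any, and up to 6 tau and 6 phi genes with the smallest p. It also took up to 3 of the brightest genes of each class, and members of other classes. In the phi class only 1 gene, GSTF4, was tested. Lists were given by up to 3 genes with the smallest p. Members and lists were chosen with earlier results of these data known. GSTU16, GSTU25, ATGSTF13, UGT73B4, UGT73B5 and the 2 members below the filter were added outside that rule.

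The main fit did not pair arrays by replicate number. Deviations of the 9 same-numbered pairs correlated at -0.05 to 0.11, and 1 pair was above 0.1. Pairs of other numbers correlated at -0.13 to 0.12. Such correlations over all probe sets cannot exclude a pairing that affects some of them. Alternatives covered the filter, quantile scaling, log2(signal + 32), the variance trend, array weights, the arrays fitted, a replicate block, organelle probe sets, thresholds and each array left out in turn. The small number of arrays limits the precision.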

Additional observations from a re-analysis of the deposited data

How the results depend on the processing

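The count of 0 called GST genes was the same under every alternative run. The lowest adjusted p that any tested gene reached was 0.1002 (GSTL3, 50 kPa/NormOx against 97 kPa). GSTL3, GSTU18, GSTU22, GSTU23, GSTU26, GSTU27 and GSTU28 kept their direction for that comparison in every alternative. Each gene had 1 plain probe set, so averaging probe sets or leaving out shared ones changed nothing. With the lowest 50% left out, no phi gene remained.

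The tau median for 50 kPa/NormOx against 97 kPa, -0.11, was 0.14 with no filter (10 genes) and 0.14 with the lowest 50% left out (6 genes), as GSTU15 and GSTU21 entered the set or GSTU16 and GSTU18 left it. Leaving out 1 array moved it between -0.27 and 0.16, and moved the tau median for 50 kPa against 50 kPa/NormOx between -0.16 (without 50 kPa/NormOx replicate 1) and 0.14.

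Signs of small estimates turned under some alternatives; the cause was not tested. For 50 kPa against 97 kPa, GSTF4 was 0.0612 under quantile scaling and 0.0177 with array weights, and GSTU26 was -0.0254 with array weights; for 50 kPa/NormOx against 97 kPa, GSTU16 was 0.0058 with array weights. With 1 array left out, the 50 kPa against 97 kPa estimates ran from -0.37 to 0.16 for GSTF4, -0.12 to 0.11 for GSTL3, -0.40 to 0.40 for GSTU16, -0.32 to 0.24 for GSTU26 and -0.10 to 0.24 for GSTU28. For 50 kPa/NormOx against 97 kPa they ran from -0.61 to 0.14 for GSTF4, -0.53 to 0.26 for GSTU16 and -0.34 to 0.0537 for GSTU25. For 50 kPa against 50 kPa/NormOx they ran from -0.17 to 0.57 for GSTF4, -0.0708 to 0.36 for GSTU16, -0.11 to 0.38 for GSTU18, -0.27 to 0.0699 for GSTU22 and -0.0871 to 0.32 for GSTU23.

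Counts of all called probe sets (15 for 50 kPa against 97 kPa, 62 for 50 kPa/NormOx against 97 kPa and 13 for 50 kPa against 50 kPa/NormOx) depended on the settings. For 50 kPa against 97 kPa they were 26 with log2(signal + 32), 6 without the variance trend, 35 with array weights, 62 with only the 6 arrays compared, 38 at an adjusted p under 0.10 and 101 at an unadjusted p under 0.01 with at least a 2-fold change. For 50 kPa/NormOx against 97 kPa they were 0 without the trend (limma, with 1801 probe sets and 4 GST genes at an unadjusted p under 0.05), 121, 103, 189 and 143 for array weights, 6 arrays and these 2 thresholds. For 50 kPa against 50 kPa/NormOx they were 4 without the trend and 70 by the last threshold. With 1 array left out the counts ran from 8 to 53, from 2 to 96 and from 8 to 94 in that order, and the highest count came each time without 50 kPa/NormOx replicate 2. With the replicate block they were 30, 86 and 28 in the same order of comparisons. The block changed no GST call.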
